A study of Mus musculus with 6 samples.

Results

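Calcium release and reuptake in muscle fibres was described through 8 genes, Ryr1, Cacna1s, Casq1, Casq2, Atp2a1, Atp2a2, Pvalb and Pln, chosen by gene symbol in the platform annotation. Of these, 7 genes had 9 probe sets among the 12422 mouse probe sets of the array, with 2 each for Atp2a1 and Pvalb, and Pln was not analysed here. The samples were total RNA of mouse tibialis anterior, which lifts the foot, from mice 48 h after 50 eccentric contractions (the active muscle is lengthened), from mice 48 h after 50 isometric contractions (its length is held), and from control legs. Control legs were the opposite legs of exercised animals and had contracted only as far as a measurement of isometric torque needed. Each of the 3 groups was 1 RNA pool of 4 animals, split onto 2 Affymetrix MGU74Av2 arrays lettered A and B. A group is therefore 1 biological sample, no p-value was computed, and each mean ± SD covers 2 arrays of 1 pool, not animals. The labels give no strain, sex or age, and do not say which exercised animals gave the control legs.

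Background on the pathway is as follows. In a muscle fibre the action potential runs into the transverse tubules, where the voltage sensor Cav1.1, encoded by Cacna1s, is coupled to the ryanodine receptor Ryr1, the release channel of the sarcoplasmic reticulum. The calcium released is held ready inside the reticulum by calsequestrin (Casq1 in fast fibres, Casq2 in slow fibres and heart), is bound in the cytosol of fast fibres by parvalbumin (Pvalb), and is pumped back by the SERCA pumps, SERCA1 (Atp2a1) in fast and SERCA2 (Atp2a2) in slow fibres, heart and non-muscle cells. Phospholamban (Pln) restrains SERCA2. The tibialis anterior of the mouse is a mostly fast muscle.

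Casq1, Cacna1s and a probe set of Pvalb had lower signals in the eccentric pool than in both other pools, and Atp2a2 had a higher one. This order held under each of the 9 alternatives of scaling, floor and arrays left out. Leaving out arrays could not undo it, since arrays that do not overlap stay apart, and changes of the floor hardly move bright signals. For the lower probe sets only scaling to the same median and quantile normalization could therefore have changed it. Of all probe sets with a mean signal of at least 3000, 53.9% were lower without overlap against the control and 45.6% against the isometric pool. Of all measured probe sets, 30.1% and 28.3% were higher without overlap in the same order. Atp2a2 was dim, and its control A signal of 40.7 lay below the floor. For the genes of the lower probe sets the 300-base promoters are shown, from 250 bases before to 50 bases after an annotated start. E-boxes (CANNTG, the motif bound by myogenic bHLH factors, read on both strands) are in capitals. The sequences are from RefSeq, build GRCm38.p6, 5′ to 3′ on the gene's strand, and Pvalb has 2 annotated starts there.
Casq1 promoter, chr1:172219846-172220145, strand minus: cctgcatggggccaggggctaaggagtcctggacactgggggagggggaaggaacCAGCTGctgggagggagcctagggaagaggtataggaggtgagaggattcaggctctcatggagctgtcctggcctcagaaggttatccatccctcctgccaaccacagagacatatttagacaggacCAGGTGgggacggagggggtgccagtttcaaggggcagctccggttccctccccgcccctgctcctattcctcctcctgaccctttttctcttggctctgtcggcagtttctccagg
Cacna1s promoter, chr1:136052561-136052860, strand plus: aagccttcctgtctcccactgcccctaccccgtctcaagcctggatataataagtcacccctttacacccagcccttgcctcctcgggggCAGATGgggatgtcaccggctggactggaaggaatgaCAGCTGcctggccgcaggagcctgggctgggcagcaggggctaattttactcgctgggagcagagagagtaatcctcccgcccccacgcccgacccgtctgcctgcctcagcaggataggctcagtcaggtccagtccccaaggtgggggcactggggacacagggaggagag
Pvalb upstream promoter, chr15:78206351-78206650, strand minus: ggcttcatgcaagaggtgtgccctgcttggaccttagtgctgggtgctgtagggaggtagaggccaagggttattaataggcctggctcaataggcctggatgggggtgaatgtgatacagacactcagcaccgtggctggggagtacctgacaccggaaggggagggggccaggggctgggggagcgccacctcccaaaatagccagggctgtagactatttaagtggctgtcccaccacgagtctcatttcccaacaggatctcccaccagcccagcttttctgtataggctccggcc
Pvalb downstream promoter, chr15:78204188-78204487, strand minus: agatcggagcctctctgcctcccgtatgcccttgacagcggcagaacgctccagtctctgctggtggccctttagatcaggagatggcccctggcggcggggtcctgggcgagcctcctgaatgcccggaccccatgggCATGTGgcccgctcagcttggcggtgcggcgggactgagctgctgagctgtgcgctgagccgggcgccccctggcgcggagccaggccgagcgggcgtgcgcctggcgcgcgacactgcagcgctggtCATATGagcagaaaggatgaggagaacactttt

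An E-box stood in 6 of the 8 promoter entries found for 7 members, and in 72.3% of 32851 mouse promoters of the same length. The MEF2 core (CTA and TAG with any 4 bases between) was in 0 of the 8 entries and in 3.69% of all promoters. The NFAT core GGAAA was in 4 of the 8 and in 61.3% of all, and TATAAA in 1 of the 8, that of Pln, and in 13.6% of all. These matches are a description of the letters only.

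Signals below a floor of 120.8, the 40th percentile of all values, were set to the floor before log2 was taken, and a probe set counted as measured where 1 or both pools lay above it on their 2 arrays. A call needed a difference between pools of at least 1 on the log2 scale, a 2-fold difference, with all 4 pairings of arrays going the same way. Arrays of 2 pools that did not overlap are also counted, with no size required. Acta1, the skeletal muscle actin, was bright on all 6 arrays, with 30642 to 41439. Of 13 probe sets of skeletal muscle fibre markers, 1 (of Mb) lay below the floor on all 6, and 1 of Ckm passed it on 3 arrays only. Of 9 probe sets of heart markers 3 (Myh6, Myl7 and Tnnt2) lay below the floor on all 6. The heart markers Nppa, Mybpc3 and Myl4 lay above it on all 6, and the summed signal of the 9 was 1938 and 2068 on the eccentric arrays, 1998 and 2381 on the isometric arrays and 2054 and 2008 on the control arrays. The upper end of the signals differed between arrays of a pool, where the level exceeded by 0.1% of probe sets was 31545 and 29518 on the eccentric arrays, 28368 and 40842 on the isometric arrays, and 41275 and 32570 on the control arrays. Isometric B and control A were thus brighter at the top, where 5 of the 9 member probe sets had their highest 2 signals. The same arrays had the higher ribosomal RNA control signal of their pools, with a geometric mean of 7199 and 10403 on eccentric A and B, 1761 and 23476 on isometric A and B, and 15860 and 3870 on control A and B. For RNA quality, the log2 difference between the 3-prime and 5-prime control probe sets of actin averaged 0.44 in the eccentric, 0.21 in the isometric and 0.04 in the control pool. That of Gapdh averaged 0.12, 0.10 and -0.06 in the same order, with -0.07 on isometric A and 0.27 on isometric B. The part of the ribosomal RNA and RNA quality controls in the results was not tested.

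In the release machinery, the voltage sensor and the release channel both had lower signals in the eccentric pool. Cacna1s had signals of 3298 and 3267 on the eccentric arrays, 4117 and 5192 on the isometric arrays and 4627 and 4419 on the control arrays. Both eccentric arrays lay below all 4 others. The difference was -0.46 on the log2 scale against the control pool, or -27.4%, and -0.49 against the isometric pool, where it was -0.33 without isometric B. The isometric pool straddled the control arrays, at a log2 difference of 0.03. In bulk RNA, here and for all members, fewer cells of a type cannot be told apart from less RNA per cell.

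Ryr1 had signals of 16243 and 15772 on the eccentric arrays, 17235 and 20534 on the isometric arrays and 19422 and 19948 on the control arrays. The eccentric arrays were again below the rest, by -0.30 against the control and -0.23 against the isometric pool on the log2 scale. The difference from the isometric pool was -0.11 without isometric B and -0.36 without isometric A. The order also depended on the scaling, since after quantile normalization the log2 differences were 0.02 and 0.02. The isometric arrays lay 1 below and 1 above both control arrays.

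Casq1, the calsequestrin of fast fibres, showed the largest difference among the bright member probe sets. Its signals were 17109 and 15772 on the eccentric arrays, 20749 and 32861 on the isometric arrays, and 27899 and 24563 on the control arrays. Its mean was 16441 ± 946 in the eccentric pool, 26805 ± 8565 in the isometric pool and 26231 ± 2359 in the control pool (SD, n = 2 arrays each). No eccentric array reached any other, and the log2 difference was -0.67 against the control pool (-37.2%) and -0.67 against the isometric pool. It ranged from -0.76 to -0.40 against the control pool over the alternatives, with -0.40 after quantile normalization. The isometric arrays enclosed the control arrays, at a log2 difference of -0.004, which was -0.34 without isometric B and 0.33 without isometric A, so they spread more widely than the pools differed.

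Casq2, the calsequestrin of slow fibres and heart, was dim and gave no settled order. It had 342.7 and 342.8 on the eccentric arrays, 268 and 340 on the isometric arrays and 349 and 90.0 on the control arrays. Control A lay above and control B below both exercised pools, so the log2 difference of 0.74 between the eccentric and the control pool turns on 1 control array. It was 1.5 without control A and -0.02 without control B. Control B was below the floor and entered at 120.8, and with the floor at the 20th percentile the difference was 0.95. Against the isometric pool the eccentric arrays were higher without overlap, but by only 0.18, and by 0.01 without isometric A.

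Pvalb, the cytosolic calcium buffer of fast fibres, has a brighter probe set (suffix i) and a dimmer one (suffix f). The suffix f marks a probe set open to signal from related sequences. The dimmer one had 10052 and 9952 on the eccentric arrays, 14071 and 14429 on the isometric arrays and 13517 and 15205 on the control arrays. Its means were 10002 ± 70.4 in the eccentric, 14250 ± 253 in the isometric and 14361 ± 1194 in the control pool (SD, n = 2 arrays each). The eccentric arrays stood well apart, with a difference of -30.2% from the control pool (log2 -0.52) and -29.8% from the isometric pool (log2 -0.51), while the isometric arrays lay between the 2 control arrays.

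The brighter Pvalb probe set had 33564 and 30288 on the eccentric arrays, 27822 and 47566 on the isometric arrays and 44208 and 33843 on the control arrays. Its higher eccentric array lay just under the lower control array, and the log2 difference of -0.28 became -0.09 without control A and -0.01 after quantile normalization. Against the isometric pool the arrays overlapped, at -0.19. The size of the Pvalb difference therefore differed between its probe sets.

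**Figure D1:**
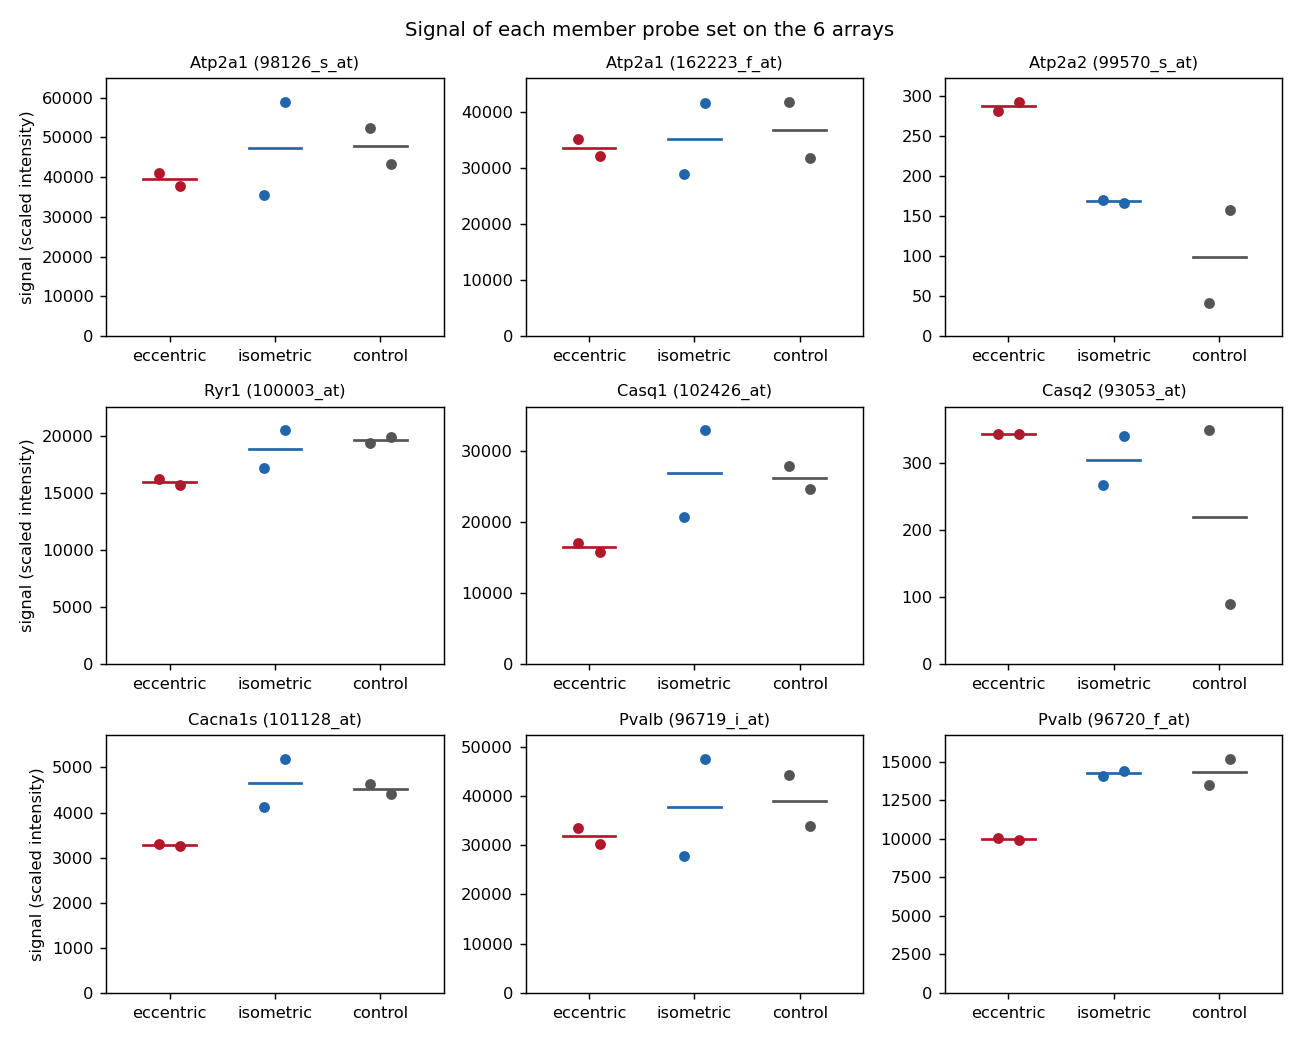
Signal (scaled intensity, linear axis from 0) of the 9 member probe sets, with the eccentric, isometric and control pools from left to right, a point for each of the 2 arrays and a line at their mean. The eccentric points of Casq1, Cacna1s, Ryr1 and the dimmer Pvalb probe set lie below the other 4, those of Atp2a2 lie above, and for Atp2a1 the isometric points span most of the range.

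In reuptake, the fast-fibre pump showed no settled difference and the slow-fibre and non-muscle pump was higher. Atp2a1 on its brighter probe set had 41155 and 37682 on the eccentric arrays, 35466 and 58952 on the isometric arrays and 52420 and 43416 on the control arrays. The eccentric arrays were below both control arrays but inside the isometric pair. The log2 difference from the control pool was -0.28, and it was -0.14 without control A and -0.03 after quantile normalization.

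The dimmer Atp2a1 probe set had 35176 and 32136 on the eccentric arrays, 28887 and 41707 on the isometric arrays and 41882 and 31776 on the control arrays. All 3 pools overlapped. Its log2 difference between the eccentric and the control pool was -0.12, with a sign that turned to 0.08 without control A and 0.13 after quantile normalization. Between the exercised pools it was -0.05.

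Atp2a2 was the 1 member probe set called, among 9 measured, between the eccentric and the control pool, where 5.97% of 7486 measured probe sets were called. It had 282 and 293 on the eccentric arrays, 171 and 166 on the isometric arrays and 40.7 and 157.5 on the control arrays, so the 3 pools stood in that order without overlap. Control A was below the floor and entered at 120.8. The suffix of the Atp2a2 probe set (s), like those of the Atp2a1 probe sets (s and f), also marks possible signal from related sequences. The fold was 2.08 over the control pool (log2 1.06) and 1.71 over the isometric pool (log2 0.77, not called), and the isometric pool was 0.29 above the control pool on the log2 scale. Without control A the log2 difference from the control pool was 0.87 and the call was lost, so that it rests on this array. With the floor at the 20th percentile it was 1.84, and the isometric pool then also passed the rule, at 1.07.

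The summed signal of macrophage and monocyte markers had the same order of pools as Atp2a2, though single markers differed. Of the 13 marker genes 12 were measured, on 15 probe sets, of which 11 were called higher in the eccentric than in the control pool and 0 lower, with a median log2 difference of 1.65. Between the isometric and the control pool 10 of 12 were above 0 and 2 below (a probe set each of Csf1r and Fcgr1). Their summed signal over 19 probe sets was 27165 and 26986 on the eccentric arrays, 15043 and 14716 on the isometric arrays and 8577 and 8978 on the control arrays, with 3 probe sets below the floor on all 6 arrays. Ctss, a lysosomal protease, had 7059 ± 193 in the eccentric, 3147 ± 86.7 in the isometric and 2259 ± 192 in the control pool (SD, n = 2 arrays each). Lyz2, a lysozyme, had 6300 ± 104, 4496 ± 587 and 2017 ± 75.1 in that order, while the integrin Itgam passed the floor on 1 array only, eccentric A. The slow-fibre contractile genes had a median log2 difference of -0.33 between the eccentric and the control pool over 6 measured probe sets, with 0 called. Their median was 0.15 between the isometric and the control pool. The part of macrophages and monocytes, or of slow fibres, in the signal of Atp2a2 and of the other genes below was not tested.

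Seen together, 6 of 9 member probe sets were lower in the eccentric than in the control pool without overlap of arrays and 1 was higher, against 31.5% lower and 30.1% higher among all measured probe sets. Bright probe sets as a whole leaned the same way. Of the 566 probe sets with a mean signal of at least 3000, 53.9% were lower without overlap, with a median log2 difference of -0.19, beside 6 of the 7 members this bright, with a median of -0.30. Fast-fibre contractile genes gave 10 of 12 measured probe sets lower without overlap, 0 called, and a median of -0.29. After quantile normalization the members lower without overlap were 3 of 9 (Casq1, Cacna1s and the dimmer Pvalb probe set), and the dimmer Atp2a1 probe set joined Atp2a2 among those higher. No share over all measured probe sets is given for this setting, and with trimmed-mean scaling 31.5% were lower without overlap.

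**Figure D2:**
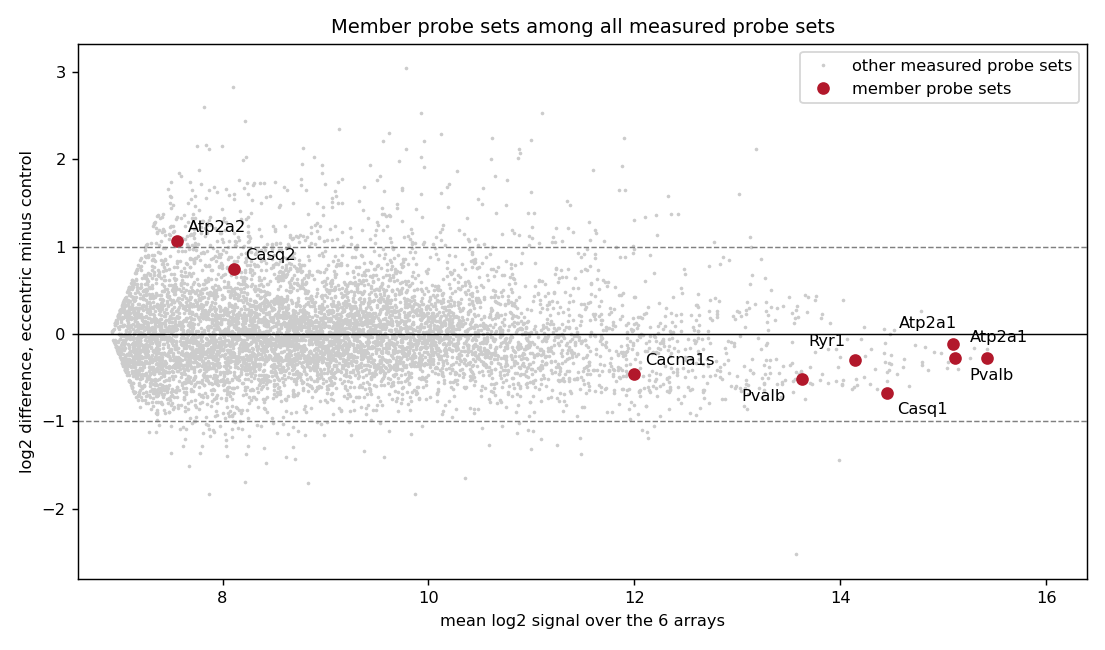
Log2 difference of the eccentric minus the control pool (vertical axis) against mean log2 signal over the 6 arrays (horizontal axis) for 7486 measured probe sets in grey and the 9 member probe sets in red, with dashed lines at a 2-fold difference. The 7 bright members lie below 0 at the right end, among other bright probe sets that are mostly below 0 too, and Atp2a2 and Casq2 lie above 0 at the dim end.

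Between the isometric and the control pool, 7 of the 9 member probe sets differed by less than 0.1 on the log2 scale, Atp2a2 by 0.29 and Casq2 by 0.56. None of the 9 was called (0), where 1.32% of 7336 measured probe sets were, and no p-value exists for this pair of pools. Only Atp2a2 had arrays that did not overlap, higher by 0.29, while 18.5% of all measured probe sets were higher and 19.5% lower without overlap. The median log2 difference was -0.01 over the members and -0.01 over all measured probe sets. Arrays of a pool differed widely: isometric B exceeded isometric A by 0.73 for the brighter Atp2a1 probe set, 0.77 for the brighter Pvalb probe set and 0.66 for Casq1 on the log2 scale, against a median of 0.22 in size for probe sets of mean signal at least 3000. Casq2 differed by -1.53 between control B, which entered at the floor, and control A. Without control A it was called higher in the isometric pool, at 1.32, a size that also depends on the floor. Without control B it was -0.21.

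Between the exercised pools 0 of 9 members were called, where 2.25% of 7372 measured probe sets were. Without overlap of arrays 4 were lower in the eccentric pool (Casq1, Cacna1s, Ryr1 and the dimmer Pvalb probe set) and 2 higher (Atp2a2 and Casq2), against 24.3% lower and 28.3% higher among all measured probe sets, and 45.6% lower among those of mean signal at least 3000. The median over the 9 members was -0.22, beside 0.02 over all measured probe sets. Both comparisons of the eccentric pool use the same 2 eccentric arrays, and both comparisons with the control pool the same 2 control arrays, so their values are not independent. Without isometric A, Casq1 was called lower at -1.0, and without isometric B its difference was -0.34. Without isometric B the sign also turned for both Atp2a1 probe sets (0.15 and 0.22) and for the brighter Pvalb probe set (0.20).

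**Figure D3:**
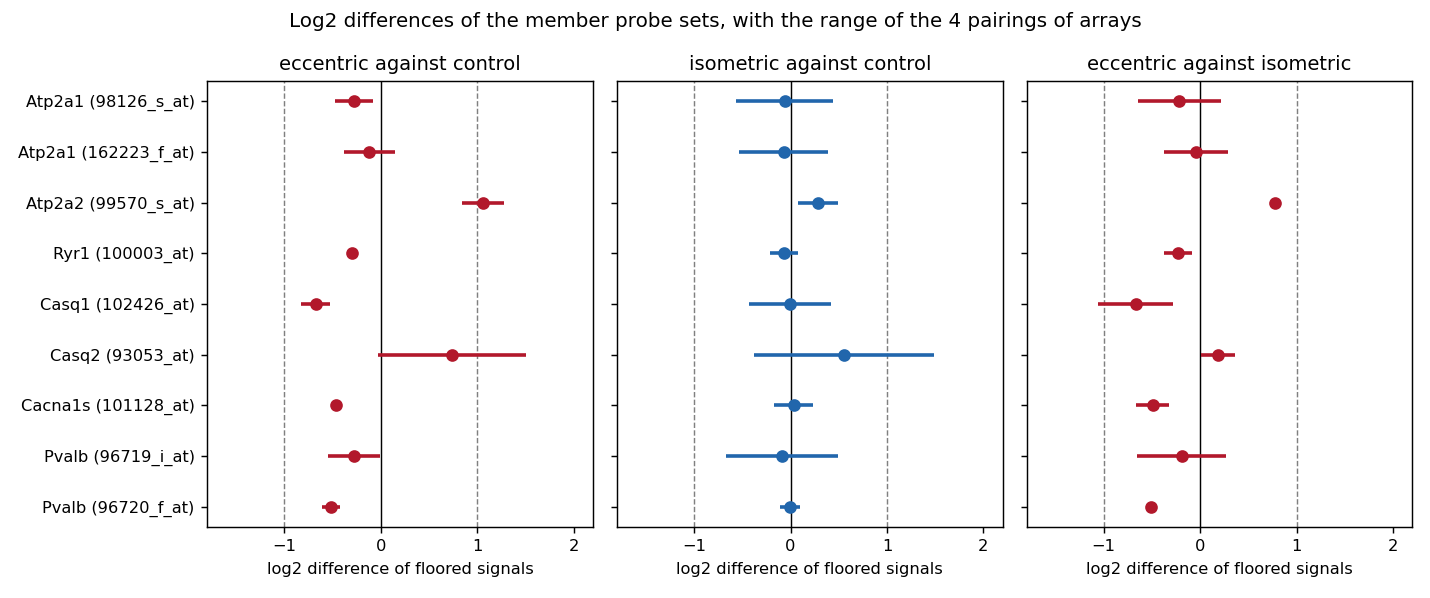
Log2 differences of floored signals for the 9 member probe sets in 3 comparisons, with a point at the difference of the pool means, a bar over the range of the 4 pairings of arrays, and dashed lines at a 2-fold difference. Bars of Casq1, Cacna1s, Ryr1 and the dimmer Pvalb probe set stay left of 0 in both comparisons of the eccentric pool, while the bars of 8 of the 9 cross 0 between the isometric and the control pool.

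**Figure D4:**
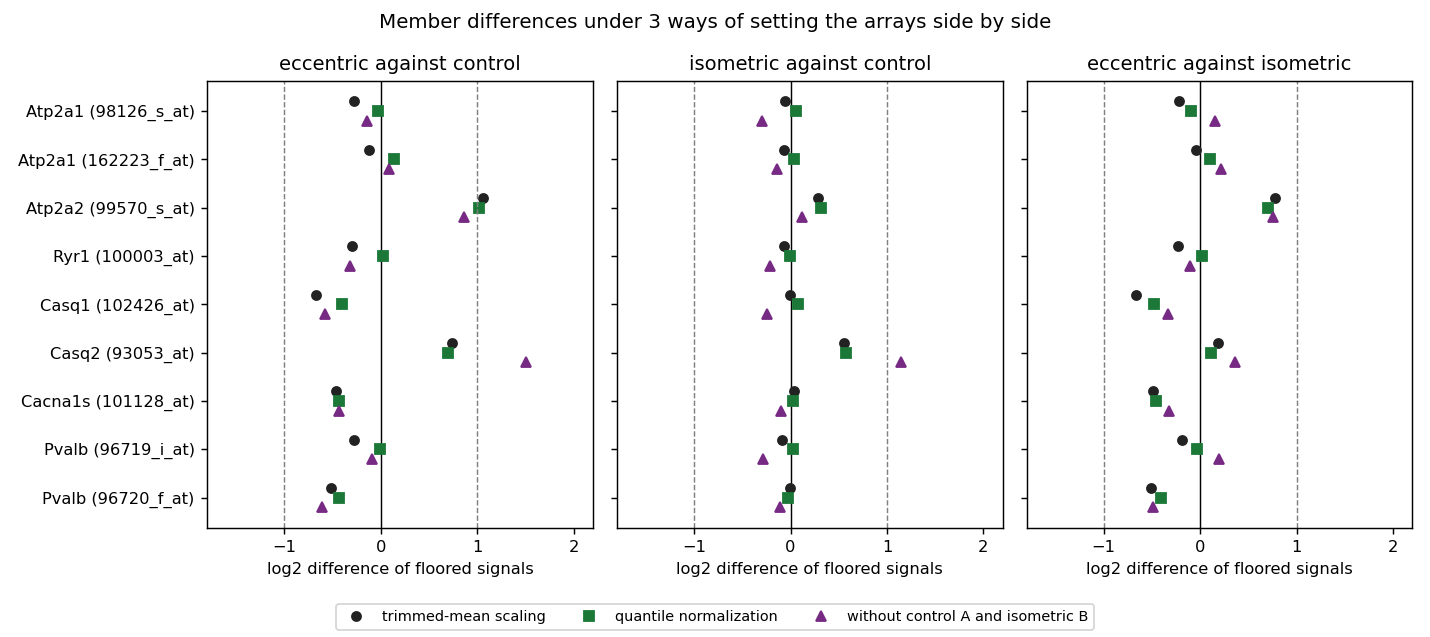
Log2 differences of the 9 member probe sets with trimmed-mean scaling (circles), after quantile normalization (squares) and without control A and isometric B (triangles), in the same 3 comparisons. Casq1, Cacna1s and the dimmer Pvalb probe set stay below 0 in both comparisons of the eccentric pool under the 3 settings, and Ryr1 moves to 0.02 after quantile normalization.

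Other genes of the pathway were described from 5 lists (release and triad, reuptake, buffers, export and entry, sensors and effectors), with the 8 members left out. Of 80 genes listed, 51 were on the array, with 76 probe sets, of which 45 were measured between the eccentric and the control pool. Of these, 4 were called higher and 3 lower, beside 364 higher and 83 lower among the 7486 measured probe sets (5.97% in all), and the median log2 difference was -0.03, the same as the -0.03 over all measured probe sets. Between the isometric and the control pool 0 of 44 were called, beside 1.32% of all, and between the exercised pools 1 of 43 was, beside 2.25% of all.

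Among release and triad genes, 2 of 16 measured probe sets were called higher in the eccentric than in the control pool and 0 lower. Homer3, a scaffold that binds calcium release channels, had 283 and 341 on the eccentric arrays, 227 and 183 on the isometric arrays and 75.0 and 110 on the control arrays, which were both below the floor. With the control arrays entered at the floor, the fold was 2.57 and the call held under 9 of 9 alternatives. Fkbp1b, an immunophilin that binds ryanodine receptors, had 633 and 602, 522 and 501, and 310 and 303 in the same order, a 2.02-fold difference that lay just past the threshold and lost its call under 5 of 9 alternatives. The isometric arrays of both genes stood between the other pools.

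Subunits of the voltage-sensor channel did not move as one (both were picked after their values were seen). Cacng1, its gamma subunit, had 4774 and 4670 on the eccentric arrays, 3141 and 2861 on the isometric arrays and 3209 and 3293 on the control arrays. It was 1.45-fold higher in the eccentric than in the control pool (log2 0.54, 0.52 to 0.63 over the alternatives), while the pore-forming Cacna1s was lower. Cacna2d1, its alpha-2/delta subunit, had 602 and 464, 952 and 596, and 1020 and 713, a log2 difference of -0.69 from the control pool that ranged from -0.95 to -0.43 over the alternatives. Neither was called.

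In the reuptake list Hrc, a calcium-binding protein of the reticulum lumen, was the nearest to Casq1 in size. It had 3294 and 2988 on the eccentric arrays, 4394 and 5624 on the isometric arrays and 4847 and 4965 on the control arrays, a log2 difference of -0.65 that was not called. Atp2a3, another SERCA pump, overlapped between all pools, with a log2 difference of 0.07, and sarcolipin (Sln), a small SERCA inhibitor, was not measured, at 123 or less on every array. Of the 2 measured probe sets in this list 0 were called. Among buffers 1 of 5 was called, Rcn1, a calcium-binding protein of the endoplasmic reticulum, with 435 and 411, 347 and 344, and 189 and 200 in the eccentric, isometric and control pools, a 2.18-fold difference. Calu (calumenin), of the same compartment, was next at a log2 difference of 0.50. For Rcn1, without the floor (a pseudocount of 50) the log2 difference of 1.12 became 0.95 and the call was lost.

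Among export and entry genes 0 of 4 measured probe sets were called, and the largest differences were those of Atp2c1, a pump of the Golgi, and Stim1, the calcium sensor of the reticulum. These were -0.47 and -0.39 on the log2 scale against the control pool. Of the 18 measured probe sets of sensors and effectors 1 was called higher and 3 lower. Rcan1, an inhibitor of the calcium-dependent phosphatase calcineurin, had 2360 and 2374 on the eccentric arrays, 1144 and 705 on the isometric arrays and 1090 and 1145 on the control arrays. It was 2.12-fold higher than in the control pool and 2.64-fold higher than in the isometric pool, and both calls held under the 9 alternatives each. Rcan1 was the 1 probe set of the 5 lists that passed between the exercised pools.

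Ppp3cb, a catalytic subunit of calcineurin, had 392 and 453 on the eccentric arrays, 712 and 456 on the isometric arrays and 765 and 1149 on the control arrays. Its log2 difference from the control pool was -1.15, and -0.86 without control B, when the call was lost. Capn3, the calpain protease of muscle, was called lower on 2 probe sets, at -1.02 and -1.0, and was lower without a call at -0.54 on its brightest. The signals of the probe set at -1.0 were 313 and 350, 511 and 523, and 660 and 664 in the eccentric, isometric and control pools, which did not overlap. Both calls of Capn3 lay at the threshold and were lost without control B and with a pseudocount of 50 in place of the floor, and the call at -1.0 also without eccentric A.

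**Figure D5:**
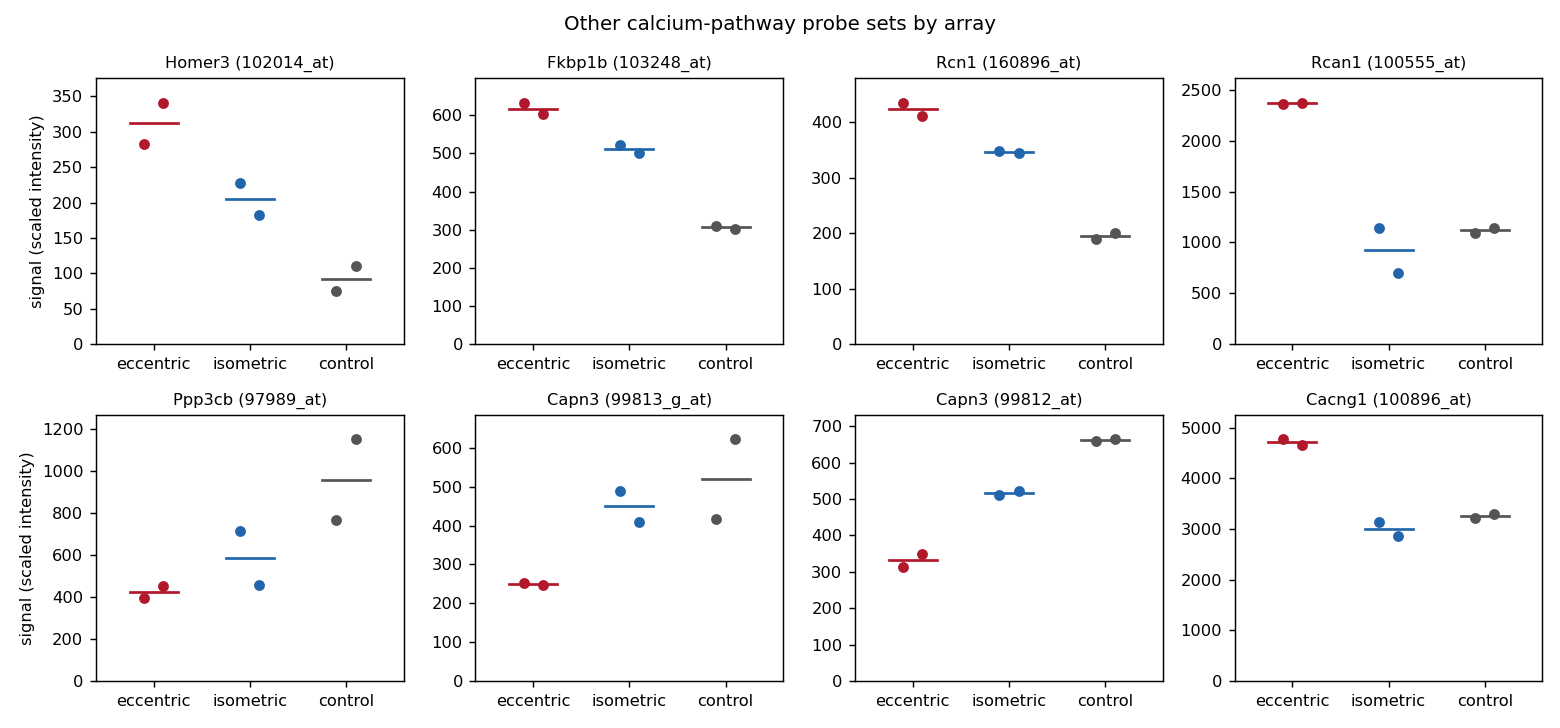
Signal (scaled intensity, linear axis from 0) of the 7 called calcium-pathway probe sets and of Cacng1, which was not called, with the eccentric, isometric and control pools from left to right, a point for each of 2 arrays and a line at their mean. The eccentric points of Homer3, Fkbp1b, Rcn1, Rcan1 and Cacng1 are the highest, and those of both Capn3 probe sets and Ppp3cb are the lowest. For Rcan1 the point of isometric A lies with the control points and that of isometric B below them.

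Genes whose pattern was most like that of Casq1 were sought over the 6 arrays, by the root mean square distance between log2 signals centred on their own means, among 5641 probe sets above the floor on all 6. The nearest was Tpi1, a glycolytic enzyme, at a distance of 0.06. It was followed by Fmc1, an assembly factor of the mitochondrial ATP synthase (0.07), Uqcrh, a subunit of respiratory complex III (0.07), Polr2m (0.08) and Ech1, an enzyme of fatty acid oxidation (0.08). Their log2 differences from the control pool were -0.64 to -0.54 in the eccentric pool and -0.04 to 0.13 in the isometric pool. Values near those of Casq1 follow from the choice of these genes on the same 6 arrays. Among the other members Cacna1s was nearest, at 0.14, and the rest lay between 0.20 (the brighter Atp2a1 probe set) and 0.80 (Atp2a2).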

How the data were processed

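For every array the authors deposited linear intensity values, 1 for each probe set. Per the labels, each group's RNA came from 4 animals as 1 pool, hybridised to 2 MGU74Av2 arrays. Which software corrected the background and combined the probes is not stated in the sources used here. The deposited trimmed means (2% removed at each end) were nearly equal, so a shift common to most genes is not visible. Genes were named from the platform annotation, with 1 gene for 10833 probe sets, several for 396 and none for 1193, and 66 array controls were left out of counts.

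Arrays were rescaled to one trimmed mean, floored at the 40th percentile, and logged to base 2. The size rule was checked on simulated data, only for differences well past 2-fold in probe sets well above the floor. Calls near the threshold or the floor were not covered by it. No test was made, since 2 arrays of 1 pool are technical copies, and the number of arrays limits the precision. The members and lists were chosen with earlier results of these data known. Named were all members, called genes of each calcium list, its 2 measured probe sets with the largest difference between the eccentric and the control pool, 5 genes of like pattern, and marker genes. Cacng1 and Cacna2d1 were added after their values were seen. Values were computed in Python 3.11.15 (numpy 2.4.6, pandas 2.3.3, and scipy 1.17.1 for trimmed means), and plots were drawn in matplotlib 3.10.9.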

Additional observations from a re-analysis of the deposited data

How the results depend on the processing

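No paired analysis was possible because each group is 1 RNA pool, the letters A and B only name its 2 arrays, and the results come from no test. In each comparison 81 log2 differences were recomputed for the 9 member probe sets. Those that kept their sign were 76 (eccentric against control), 72 (eccentric against isometric) and 60 (isometric against control). These were not 81 separate checks. Without control A and isometric B, the eccentric against control values repeat those without control A. The eccentric against isometric values then repeat those without isometric B. Lowering the floor returned the main values of the bright members. Counts out of 9 alternatives for the eccentric pool hold the same repeats.

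Of the 9 member probe sets, 1 was called between the eccentric and the control pool, and this count was 2 with a 1.5-fold rule (Atp2a2 and Casq1). Over all 7486 measured probe sets that rule called 894 higher and 571 lower. Without control A the count was also 1, but Casq2 took the place of Atp2a2. Between the exercised pools it was 2 with the 1.5-fold rule (Atp2a2 and Casq1), beside 571 higher and 354 lower of all 7372 measured. It was 0 to 1 there with an array left out. Between the isometric and the control pool it was 1 with the floor at the 20th percentile (Atp2a2), beside 205 higher and 213 lower of all 9862 measured. It was 1 there without control A and isometric B (Casq2), and 0 to 1 with an array left out. Quantile normalization left 3 members lower without overlap against the control pool and 2 higher. Without control A and isometric B, chosen after seeing the data, 3 were higher without overlap against the control pool and 5 against the isometric pool. With 1 array left out, the members lower without overlap were 6 to 8 against the control pool and 4 to 7 against the isometric pool, and those higher were 1 to 3 and 2 to 5. Leaving out an array makes it easier for arrays not to overlap, since fewer pairings must go the same way. Shares without overlap over all measured probe sets are not given after quantile normalization or with arrays left out. The counts of members without overlap under these settings therefore have no background of their own. No alternative background correction could be run, as only processed intensities were used.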

Other observations

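Fibre-type genes outside the calcium pathway gave the following values. Of 12 measured probe sets of fast-fibre contractile genes 11 were below 0 between the eccentric and the control pool, from a dim probe set of Myh4, a fast myosin heavy chain, at 0.13 to one of Mylpf, a fast myosin light chain, at -0.64. Between the exercised pools this Mylpf probe set was at -0.94, with 2507 ± 543 in the eccentric, 4785 ± 664 in the isometric and 3927 ± 986 in the control pool (SD, n = 2 arrays each). Its suffix (f) marks possible signal from related sequences. The other Mylpf probe set had smaller eccentric differences, at -0.33 against the control and -0.45 against the isometric pool.

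Slow-fibre contractile genes were lower in the eccentric than in the isometric pool on 5 of 6 measured probe sets without overlap, beside 24.3% of all measured probe sets, with a median log2 difference of -0.63 and 0 called. Tnnc1, the troponin C of slow fibres, had 105 and 252 on the eccentric arrays, 263 and 306 on the isometric arrays and 206 and 299 on the control arrays. Myh7, the slow myosin heavy chain, had 167 and 312, 399.8 and 431, and 127 and 424 in the same order, so that its control arrays enclosed all others but 1 isometric array. The log2 difference of Atp2a2 between the exercised pools was 0.77, and the part of slow fibres in it was not tested.

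Among markers of other cells, the measured probe sets called between the eccentric and the control pool were 1 of 11 for fibroblasts, 0 of 6 for smooth muscle and vessel wall, 0 of 5 for heart, 0 of 3 for nerve and Schwann cells and 0 of 2 for red blood cells. Over all 7486 measured probe sets 5.97% were called, so a count of 0 in lists this small does not show that these cells were unchanged.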
